A study of Rattus norvegicus with 10 samples.

Results

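The HS14 cultures were compared with the HS7 cultures, 2 libraries against 2, which are 4 of the 10 RNA-seq libraries of the series. The libraries were chosen by their labels alone, and the 2 Control libraries served as the level against which a return was judged. All groups were skeletal muscle progenitor cells cultured from the soleus, a postural muscle of the calf, of 3-month-old male Wistar rats. In hindlimb suspension (HS) the hind part of the body is lifted so that the hindlimb muscles bear no weight. HS7 rats were suspended for 7 days and HS14 rats for 14 days, while Control rats (day 0 in the labels) stayed in their cages, and the labels name no transgene or drug for these groups. Soleus tissue of both hindlimbs was digested with collagenase, fast-adhering cells were removed by pre-plating, and the remaining cells were grown in serum-rich medium until subconfluent. The RNA was therefore that of cells after a period in culture, from different rats at each time point, and not that of muscle tissue. It is not given in the sources used here if replicate 1 and replicate 2 were separate rats or dishes, so p-values measure only the spread between these libraries, which may be technical.

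Myoblasts that leave the cell cycle switch on the transcription factor myogenin (Myog), then the membrane proteins that fuse them (Mymk, Mymx), and then the genes of the contractile apparatus, its calcium stores and its energy supply. Notch signaling is known to hold muscle progenitors back from this step, and bone morphogenetic proteins (BMPs), their secreted antagonists and the extracellular matrix form part of the surroundings in which the step takes place. Soleus loses mass when it bears no weight.

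The deposited values were raw counts of 32622 rat genes. The total count lay between 23195342 and 28175200 in the 6 libraries used, between 15723 and 15918 genes had at least 1 count, and 3 counts, the smallest level taken as detectable, equalled 0.104 to 0.126 CPM, the count of a gene scaled to its TMM-adjusted library total. Levels are given in CPM for replicate 1 and then replicate 2, and they allow comparison of 1 gene between libraries but not of different genes, because gene lengths were not used. A gene is said to be near or back at the Control level where the 95% interval of its log2 difference from Control lay within 1 in either direction. A gene "passed" when edgeR's quasi-likelihood test gave a Benjamini-Hochberg adjusted p under 0.01, and a differentially expressed gene (DEG) passed with a log2 fold change beyond 1.5. All adjusted p-values are from this edgeR test unless another tool is named. Symbols were at hand for 770 genes, those that the study called at some time point against Control, so no gene list below is independent of its contrasts with Control. Of these, 735 were tested in HS14 vs. HS7. The biological coefficient of variation between libraries of a group was 8.66% in HS7, 5.49% in HS14 and 4.33% in Control.

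Between day 7 and day 14 far more genes fell strongly than rose strongly. Of 13109 genes tested, 28 were DEGs that were higher in HS14 (0.214%) and 239 were DEGs that were lower (1.82%). Without the fold threshold the directions were balanced, with 1509 genes that rose (11.5%) and 1575 that fell (12.0%), and the median log2 fold change of all genes was -0.0003. The libraries of the groups did not overlap for 4334 genes that were higher in HS14 (33.1%) and for 4554 that were lower (34.7%). Among the 735 tested genes with a symbol, 52 rose and 255 fell, 11 and 135 of them as DEGs. Their median log2 fold change was -0.68. Members of the lists below all come from these 735 genes, so their counts stand against this background as well as against that of all genes. The count of lower DEGs was 139 without HS14 replicate 2 and 361 without HS7 replicate 2, and that of higher DEGs was 16 without HS14 replicate 1 and 10 without HS14 replicate 2. DESeq2 called 18 higher and 272 lower DEGs.

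The genes of muscle differentiation fell together. The 6 lists of muscle genes held 138 names, of which 89 had a symbol and all of these were tested. In HS14, 39 of the 89 fell (32 as DEGs), 0 rose, and 50 did not pass. The fitted change was downward for 89 of 89, and the libraries did not overlap for 88 of them, against 34.7% of all genes tested. Among the 735 tested genes with a symbol, from which the members come, the fitted change was downward for 512. For 448 of these 735 the HS14 libraries lay below HS7. The names without a symbol could not be counted, and symbols were those of genes that the study called against Control. Members that were called for a high level in HS7 favor a fall in HS14, so these shares are descriptions. The median log2 fold change of the lists was -2.48 in HS14 vs. HS7, 2.07 in HS7 vs. Control and -0.479 in HS14 vs. Control. The summed level of the 89 genes was 3019 and 3121 CPM in Control, 17430 and 10390 CPM in HS7, and 2392 and 2232 CPM in HS14. HS7 replicate 1 thus stood well above HS7 replicate 2, and it was the higher of the pair for 86 of the 89 genes, by a median of 0.7495 log2 units. A fit without 1 library takes its spread from the group that keeps 2. The count of passing genes therefore depends on which group loses a library. The part of the spread between the HS7 libraries in the test results was not tested. Of the 89 genes, DESeq2 called 84 lower, and a fit of all 10 libraries called 85.

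**Figure D1:**
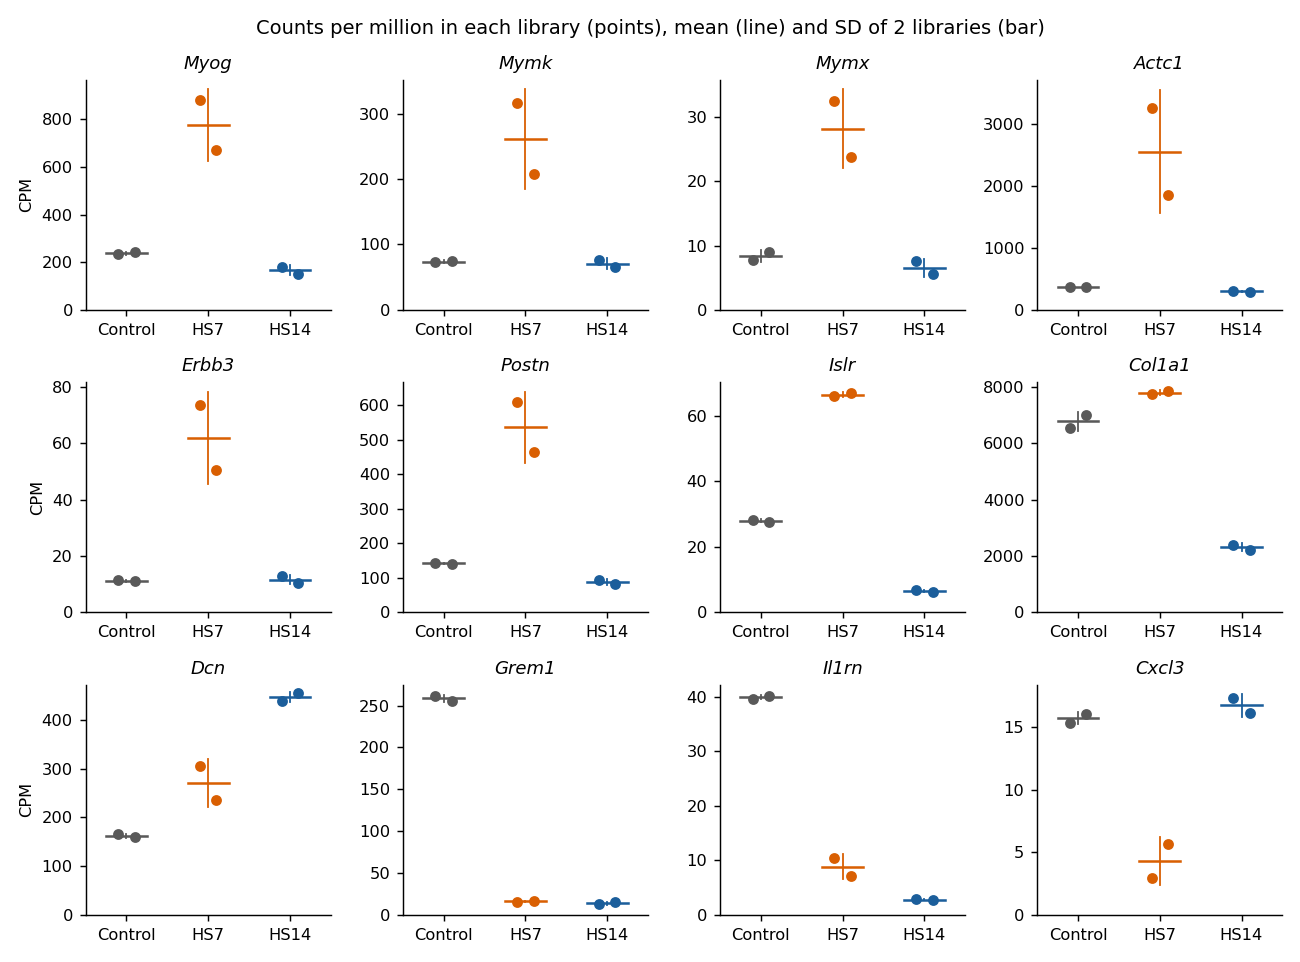
CPM of 12 genes in the Control, HS7 and HS14 libraries, on linear axes that start at 0, with a point for each library, a horizontal line at the mean and a vertical bar for the SD of 2 libraries. Myog, Mymk, Mymx, Actc1, Erbb3 and Postn are highest in HS7 and close to the Control points in HS14, whereas Grem1 lies at 12.5 to 16.3 CPM in HS7 and HS14 against 261 and 256 CPM in Control.

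Of 10 tested regulators of differentiation and fusion, 6 fell and 0 rose, with a median log2 fold change of -2.08. In HS14, 6 of the 10 were near Control by the definition above, and 2, Myog and Tead4, were below Control at adjusted p under 0.01. Myog, the transcription factor that starts terminal differentiation, was at 233 and 243 CPM in Control, at 883 and 669.6 CPM in HS7, and at 182 and 153 CPM in HS14. Every HS14 value was below every HS7 value and below the Control values. The log2 fold change of Myog was -2.20 (SE 0.20, adjusted p = 0.00576) in HS14 vs. HS7 and -0.51 in HS14 vs. Control (95% interval -0.63 to -0.39, adjusted p = 4.93e-09). Mymx, the micropeptide that completes myoblast fusion, was at 7.79 and 9.03 CPM in Control, 32.5 and 23.8 CPM in HS7, and 7.57 and 5.6 CPM in HS14. It fell by 2.08 on the log2 scale between HS7 and HS14 (SE 0.18, adjusted p = 6.45e-06), to a level whose difference from Control had a 95% interval of -0.70 to -0.00. Mymk, the membrane protein that acts before Mymx in fusion, gave 72.8 and 75.2 CPM in Control, 315 and 207 CPM in HS7, and 76.3 and 65.2 CPM in HS14. The HS7 libraries of Mymk lay above all 4 others, but with a log2 fold change of -1.87 (SE 0.31) its adjusted p was 0.0502 and it did not pass, whereas DESeq2 gave an adjusted p of 6.02e-08.

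The same order was seen in other genes of this list. Msc, a repressor of myogenic factors that is found in myoblasts, fell from 16 and 14.8 CPM in HS7 to 7.5 and 4.67 CPM in HS14 (log2 fold change -1.31, adjusted p = 9.24e-05) with 3.83 and 4.1 CPM in Control. Srpk3, a muscle-specific protein kinase, fell from 29.5 and 21 CPM to 5.57 and 6.36 CPM (log2 fold change -2.08, adjusted p = 4.12e-07), with 7.12 and 6.29 CPM in Control. Tead4, a Hippo pathway transcription factor active in myoblasts, had 111 and 67.5 CPM in HS7 and 22 and 23.3 CPM in HS14 (adjusted p = 0.0513). Smyd1, a muscle methyltransferase, had 33.9 and 18.4 CPM in HS7 and 5.05 and 3.24 CPM in HS14 (adjusted p = 0.0391). For both of these genes the groups did not overlap, yet the gap between the HS7 libraries was wide and neither passed.

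Myogenin and its relatives bind E-boxes, the letters CANNTG, and the sequence upstream of Myog and Mymx is shown because these genes fell together. Upstream windows of 250 bases come from RefSeq on the build GRCr8, with E-boxes in capitals. CANNTG reads the same on the opposite strand, so each match counts for both strands. The Myog window is chr13:48297226-48297475 on the plus strand and holds 2 E-boxes, at 157 and 31 bases before the start. The Mymx window belongs to the first of 3 listed starts, chr9:22894274-22894523 on the plus strand, and holds 6 E-boxes, 1 of which reads CAGCTG.
Myog: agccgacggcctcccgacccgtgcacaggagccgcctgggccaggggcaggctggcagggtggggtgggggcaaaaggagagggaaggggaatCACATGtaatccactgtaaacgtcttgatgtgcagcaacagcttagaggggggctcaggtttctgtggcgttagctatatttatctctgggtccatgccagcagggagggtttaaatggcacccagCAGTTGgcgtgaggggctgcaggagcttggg
Mymx: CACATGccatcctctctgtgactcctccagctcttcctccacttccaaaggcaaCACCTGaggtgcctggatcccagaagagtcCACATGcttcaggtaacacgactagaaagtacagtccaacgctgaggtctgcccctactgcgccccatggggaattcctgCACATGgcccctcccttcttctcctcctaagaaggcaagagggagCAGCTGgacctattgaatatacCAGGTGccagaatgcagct
An E-box stood in 65.2% of the windows of all 27457 genes in the table and CAGCTG in 11.9%, so a match is common and is given as a description. Shares within the gene groups below are not given, since a window was matched for 34 of 45 returned and 23 of 34 stayed genes, too few for a comparison.

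Of 15 tested contractile genes of the thick filament and M-band, 4 fell and 0 rose in HS14 vs. HS7 (median log2 fold change -2.84), and 5 were above Control in HS7 at adjusted p under 0.01. Myh3, the embryonic myosin heavy chain, had 309 and 336 CPM in Control, 1989 and 1106 CPM in HS7, and 172 and 159 CPM in HS14. The HS14 libraries of Myh3 were below the Control libraries, by 0.97 log2 units (adjusted p = 2.34e-18), while its change from HS7, -3.22 with SE 0.43, had an adjusted p of 0.0382. Mylpf, a fast regulatory light chain, had 837 and 478 CPM in HS7 and 93.3 and 98.5 CPM in HS14 (adjusted p = 0.0443). Myl4, the embryonic and atrial light chain, had 504 and 244 CPM in HS7 and 36.7 and 38.4 CPM in HS14 (adjusted p = 0.0548), and Mybph, a myosin-binding protein, had 326 and 179 CPM against 21.5 and 18.3 CPM (adjusted p = 0.0368). None of these 4 passed, although for each both HS7 libraries lay above both HS14 libraries. Myh7, the slow myosin heavy chain that marks slow fibers, was at 3.28 and 3.34 CPM in Control, 37.9 and 18.1 CPM in HS7, and 3.84 and 4.21 CPM in HS14 (log2 fold change -2.79, SE 0.55, adjusted p = 0.0578). Myom1, which crosslinks myosin in the M-band, fell from 48.8 and 31.7 CPM to 8.81 and 8.21 CPM (log2 fold change -2.23, adjusted p = 0.000527). Its call was lost without either HS14 replicate (adjusted p = 0.0511 and 0.0554). Myosin heavy chains and the sarcomeric actins are close copies of each other, and how reads shared between copies were counted is not stated, so their levels are uncertain to that extent.

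Of 15 thin filament genes 2 fell and 0 rose, with a median log2 fold change of -2.63. In HS7 3 of the 15 were above Control at adjusted p under 0.01 and 1, the actin nucleator Lmod1, was below it. Actc1, the cardiac actin that embryonic and regenerating muscle also makes, had 368 and 374 CPM in Control, 3251 and 1844 CPM in HS7, and 306 and 296 CPM in HS14. For Actc1 the log2 fold change was -3.07 (SE 0.41), with an adjusted p of 0.0378. Acta1, the adult skeletal actin, had 2055 and 1254 CPM in HS7 and 239 and 226 CPM in HS14 (adjusted p = 0.0335), and Tnnt2, the cardiac troponin T that immature muscle expresses, had 599.7 and 387 CPM in HS7 and 102 and 96.8 CPM in HS14 (adjusted p = 0.0349). Neb, the ruler protein of the thin filament, had 169.7 and 185 CPM in Control, 719.5 and 457 CPM in HS7, and 203 and 176 CPM in HS14. Of these 4 genes, Neb had the smallest change, -1.63 on the log2 scale (adjusted p = 0.0725). Tnni2, the fast troponin I, fell from 51.6 and 39.4 CPM to 10.9 and 10.7 CPM (log2 fold change -2.07, SE 0.13, adjusted p = 1.82e-08), and Nrap, a scaffold of early myofibrils, fell from 4.54 and 2.84 CPM to 0.553 and 0.337 CPM (log2 fold change -3.005, SE 0.41, adjusted p = 2.13e-05).

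Of 17 genes of the Z-disc and costamere, the structures that anchor thin filaments and tie them to the membrane, 9 fell and 0 rose (median log2 fold change -2.49). Actn2, the sarcomeric alpha-actinin, had 138 and 144 CPM in Control, 696 and 408 CPM in HS7, and 79.2 and 73.1 CPM in HS14 (adjusted p = 0.0395). Ldb3, a Z-disc adaptor, had 152 and 97.5 CPM in HS7 and 23.2 and 19 CPM in HS14 (adjusted p = 0.0332), and Itgb1bp2, the integrin-binding protein melusin, had 109.8 and 69.8 CPM against 16.2 and 15.4 CPM (adjusted p = 0.0204). Fhod3, a formin that assembles sarcomeric actin, fell from 22.1 and 12 CPM to 3.18 and 3.03 CPM (log2 fold change -2.44, adjusted p = 0.000389), and Smpx, a small costameric protein, from 8.63 and 5.61 CPM to 0.518 and 0.589 CPM (log2 fold change -3.67, adjusted p = 2.31e-07). Trim63, the ubiquitin ligase MuRF1 known for its part in atrophy, fell from 14.1 and 7.54 CPM to 1.87 and 2.44 CPM (log2 fold change -2.33, adjusted p = 0.000191), with 2.41 and 2.73 CPM in Control. Without either HS14 replicate the calls were lost for Fhod3 (adjusted p = 0.0702 and 0.0725) and Trim63 (adjusted p = 0.0242 and 0.0132).

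A pair of genes in this list did not follow the others. Sspn, sarcospan of the dystrophin complex, fell from 80 and 64.7 CPM to 29.8 and 30.4 CPM (log2 fold change -1.26, adjusted p = 1.22e-07) and remained 0.70 log2 units above Control (18.4 and 18.7 CPM, adjusted p = 2.53e-07). Hspb7, a small heat shock protein of muscle, was already lower in HS7 (28.2 and 33.5 CPM) than in Control (55.5 and 56.9 CPM) and fell further, to 17 and 17.5 CPM in HS14 (log2 fold change -0.83, adjusted p = 1.94e-05).

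Genes of excitation and calcium handling gave the most DEGs among the muscle lists, with 12 of 22 that fell, all 12 as DEGs, 0 that rose and a median log2 fold change of -2.48. The list members with the highest mean CPM had the widest spread in HS7 and did not pass. Srl, the sarcoplasmic reticulum protein sarcalumenin, had 733 and 447 CPM in HS7 and 106 and 90.5 CPM in HS14 (adjusted p = 0.0418), and Casq2, a calcium buffer of the same store, had 175 and 93.2 CPM against 16.3 and 16.2 CPM (adjusted p = 0.0512). Tmem182, a muscle membrane protein, had 155 and 91.9 CPM against 27.7 and 25.4 CPM (adjusted p = 0.0557), and Ryr1, the main calcium release channel of skeletal muscle, had 107 and 63.6 CPM against 18.9 and 15.9 CPM (adjusted p = 0.0527). Stac3, which couples the voltage sensor to Ryr1, fell from 18.6 and 10 CPM to 2.11 and 3.07 CPM (log2 fold change -2.47, adjusted p = 0.00116), with 3.6 and 3.11 CPM in Control. Cacng6, a calcium channel subunit, fell from 17.1 and 10.2 CPM to 1.66 and 2.02 CPM (log2 fold change -2.89, adjusted p = 2.26e-06). Both returned to the level of Control.

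Some calcium-handling genes went below Control. Hrc, a calcium-binding protein of the reticulum, was at 4.47 and 3.94 CPM in Control, 15.7 and 10.2 CPM in HS7, and 1.8 and 2.19 CPM in HS14 (log2 fold change vs. HS7 -2.70, adjusted p = 4.74e-07), and its HS14 level was 1.09 log2 units below Control (adjusted p = 0.00073). Kcnj12, an inward rectifier potassium channel, was at 5.34 and 6.6 CPM in Control, 14.6 and 12.4 CPM in HS7, and 3.73 and 2.1 CPM in HS14, 1.02 log2 units below Control (adjusted p = 0.000467). Pln, phospholamban, the brake on the slow calcium pump, was near Control in HS7 (4.13 and 4.03 CPM against 2.92 and 3.19 CPM) and fell to 1.11 and 1.01 CPM in HS14 (log2 fold change vs. HS7 -1.93, adjusted p = 0.000104). Dhrs7c, a reductase of the reticulum, was at 3.16 and 1.18 CPM in HS7 and at 0.0691 and 0.0842 CPM in HS14, which is below the level of 3 counts. Ryr3, the immature calcium release channel, fell from 15.4 and 9.28 CPM to 4.8 and 3.28 CPM (log2 fold change -1.59, adjusted p = 0.00095). Unlike the genes before it, Ryr3 did not go below Control but returned to that level. It had 81 and 76 raw counts in Control and 139 and 78 in HS14. The call of Stac3 was lost without HS14 replicate 1 and without HS14 replicate 2 (adjusted p = 0.0548 and 0.0309), and that of Ryr3 without HS14 replicate 2 (adjusted p = 0.0274).

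In energy metabolism 6 of 10 genes fell and 0 rose (median log2 fold change -1.79), and 2 of the 10 were near Control in HS14. Lpl, lipoprotein lipase, which releases fatty acids for uptake, was at 56 and 52.9 CPM in Control, 265 and 202 CPM in HS7, and 104 and 95.3 CPM in HS14. It fell by 1.22 on the log2 scale (SE 0.14, adjusted p = 0.00232) but stayed 0.87 log2 units above Control (adjusted p = 5.5e-14). Ckm, muscle creatine kinase, had 50.1 and 23.1 CPM in HS7 and 2.94 and 5.05 CPM in HS14 (adjusted p = 0.0825). Pygm, muscle glycogen phosphorylase, fell from 17.9 and 10.6 CPM to 3.73 and 4.88 CPM (log2 fold change -1.72, adjusted p = 0.000424), below its Control level of 7.51 and 8.23 CPM. Prkag3, a muscle subunit of AMP-activated kinase, fell from 10.1 and 6.67 CPM to 2.87 and 2.65 CPM (log2 fold change -1.59, adjusted p = 5.9e-05), with 2.13 and 2.5 CPM in Control. Without HS14 replicate 1 and without HS14 replicate 2 the calls were lost for Lpl (adjusted p = 0.0318 and 0.0431) and Pygm (adjusted p = 0.0303 and 0.0148).

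**Figure D2:**
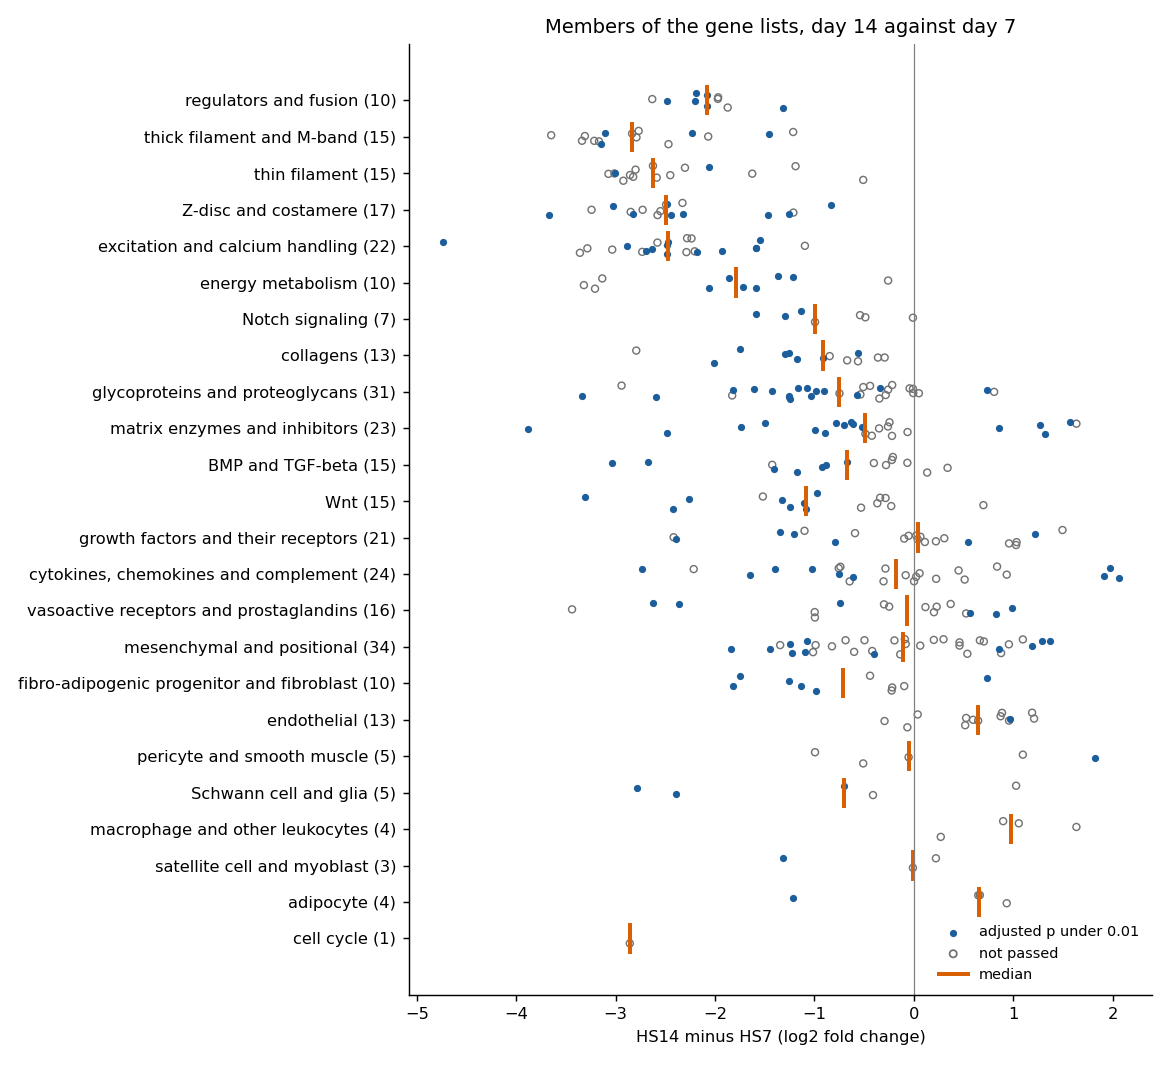
Log2 fold change of each list member in HS14 vs. HS7, 1 point a gene, filled where the gene passed, with a bar at the list median. The 6 muscle lists lie wholly below 0, with medians from -2.84 to -1.79, while the lists of growth factors, cytokines, vasoactive genes and transcription factors lie on both sides of 0.

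In bulk RNA, fewer cells of a type and less RNA per cell cannot be told apart, and this holds for every list described here. The labelled cell type could be checked on 3 of 12 satellite cell and myoblast markers that had a symbol; the other 9, Pax7 among them, were not analysed here. Fgfr4, a growth factor receptor of myoblasts, was detected in all 6 libraries, with 66.6 and 68.5 CPM in Control, 103 and 120.4 CPM in HS7, and 133 and 126 CPM in HS14. Its log2 difference between HS14 and HS7 was 0.22 (adjusted p = 0.0322). The other markers were Msc, which fell as described above, and Dlk1, an inhibitor of differentiation, with 9.41 and 8.42 CPM in Control, 0.973 and 0.632 CPM in HS7, and 0.899 and 0.673 CPM in HS14. The summed level of the 3 markers, most of it Fgfr4, was 119.8 and 135.8 CPM in HS7 and 141.1 and 131.7 CPM in HS14. Of 16 cell cycle genes 1 had a symbol: Cdkn1c, an inhibitor of the cell cycle that is high in differentiating myoblasts, had 4.98 and 5.84 CPM in Control, 78.4 and 39.9 CPM in HS7, and 7.88 and 8.34 CPM in HS14 (log2 difference -2.86, adjusted p = 0.0608).

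Of 7 tested Notch genes, 3 fell, 0 rose and 4 did not pass, with a median log2 fold change of -0.99 in HS14 vs. HS7 and 0.86 in HS14 vs. Control. In HS14, 4 of the 7 were above Control at adjusted p under 0.01 and 1, the Notch inhibitor Dlk1, was below it. Heyl, a target of Notch, was at 51.2 and 47.7 CPM in Control, 204 and 195 CPM in HS7, and 100.1 and 79.9 CPM in HS14. It fell by 1.14 on the log2 scale (SE 0.09, adjusted p = 6.22e-06) and stayed 0.86 log2 units above Control (adjusted p = 4.27e-11). The receptor Notch3 was at 29.6 and 33.3 CPM in Control, 139.5 and 132 CPM in HS7, and 78.7 and 56.5 CPM in HS14 (log2 difference from HS7 -0.99, adjusted p = 0.0175), which left it 1.10 log2 units above Control (adjusted p = 0.00105). The receptor Notch1 fell from 26.1 and 18 CPM to 10.3 and 7.41 CPM (log2 fold change -1.30, adjusted p = 0.00135). The ligand Dll1 returned, from 20 and 16.7 CPM in HS7 to 6.33 and 5.72 CPM in HS14 (log2 fold change -1.59, adjusted p = 4.93e-07) against 6.96 and 5.69 CPM in Control. Without HS14 replicate 2 the call of Notch1 was lost (adjusted p = 0.0179).

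Matrix genes fell as well, by smaller amounts than the muscle genes and mostly to levels below Control. Their median fall was close to that of the 735 tested genes with a symbol. The medians of those 735 were -0.68 in HS14 vs. HS7, -0.04 in HS7 vs. Control and -0.77 in HS14 vs. Control. Of 67 tested genes in 3 lists (86 names, 68 with a symbol), 33 fell and 5 rose, with median log2 fold changes of -0.63 in HS14 vs. HS7, -0.13 in HS7 vs. Control and -0.96 in HS14 vs. Control. HS14 was below Control at adjusted p under 0.01 for 40 of the 67 and above it for 11. The same held for 374 and 101 of the 735 tested genes with a symbol, and for 17.0% and 15.8% of all genes tested. Among 13 collagens 7 fell, 0 rose, and the HS14 libraries lay below HS7 for all 13. This was so for 34.7% of all genes tested and for 448 of the 735 with a symbol. Col1a1, a chain of the main fibrillar collagen, was at 6536 and 7006 CPM in Control, 7724 and 7848 CPM in HS7, and 2403 and 2209 CPM in HS14. It fell by 1.75 on the log2 scale (SE 0.06, adjusted p = 3.44e-12), to 1.56 log2 units below Control (adjusted p = 1.93e-28). Of the chains of collagen VI, Col6a1 fell from 484 and 405 CPM to 207 and 184 CPM (log2 fold change -1.18, adjusted p = 2.97e-06) and Col6a2 from 465 and 379 CPM to 232 and 214 CPM (log2 fold change -0.91, adjusted p = 2.44e-05), both from levels that were below Control already. Col6a3, the last chain, had risen to 2252 and 2135 CPM in HS7 from 908 and 959.9 CPM in Control and fell to 980.1 and 791 CPM in HS14 (log2 fold change -1.30, adjusted p = 6.54e-06), where its difference from Control was -0.08 (95% interval -0.40 to 0.24). Col5a3, a minor chain of collagen V, fell likewise from 651 and 515 CPM to 252 and 233 CPM, with 203 and 209.6 CPM in Control. Chains of 1 collagen molecule thus differed in their position relative to Control at day 7 and at day 14.

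Of 31 tested glycoproteins and proteoglycans, 15 fell and 1 rose. Postn, periostin, a matrix protein of injured muscle, was at 142 and 142 CPM in Control, 608 and 464 CPM in HS7, and 93.5 and 82.9 CPM in HS14 (log2 fold change vs. HS7 -2.59, SE 0.16, adjusted p = 0.000542). Its HS14 level was 0.69 log2 units below Control (95% interval -0.81 to -0.57). Islr, a secreted protein with a leucine-rich repeat that stromal cells make, fell from 65.8 and 66.9 CPM to 6.81 and 6.23 CPM (log2 fold change -3.34, SE 0.10, adjusted p = 1.45e-12), well below its Control level of 28.3 and 27.6 CPM. The fibrillin Fbn1 went down at each step, from 989 and 1027 CPM in Control to 744 and 637 CPM in HS7 and 343 and 307 CPM in HS14 (log2 fold change HS14 vs. HS7 -1.08, adjusted p = 3.67e-07). The proteoglycan biglycan (Bgn) did so too, from 1663 and 1732 CPM to 1231 and 990.0 CPM and then 605 and 574 CPM (log2 fold change -0.91, adjusted p = 6.01e-05). Ltbp2, a microfibril protein related to the binders of latent TGF-beta, had lost most of its level by day 7 (1129 and 1161 CPM in Control, 460.0 and 455 CPM in HS7) and fell by a further 0.34 log2 units to 360.4 and 358 CPM (adjusted p = 0.000196). The thrombospondin Thbs2 had 654 and 870.5 CPM in HS7 and 235 and 192 CPM in HS14 (log2 difference -1.83, adjusted p = 0.0205). Decorin (Dcn), a proteoglycan of the same family as Bgn, was the 1 gene of the list that rose, from 305 and 235 CPM to 439 and 454 CPM (log2 fold change 0.73, adjusted p = 0.00431), and it moved away from its Control level of 165 and 159.8 CPM. The removal of either HS14 library ended the calls of Dcn (adjusted p = 0.0384 and 0.053) and Ltbp2 (adjusted p = 0.0101 and 0.0154).

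For Postn the upstream window is shown because it returned with the muscle genes while most of its list did not. It is chr2:140677811-140678060 on the plus strand of GRCr8, with 2 E-boxes in capitals, 1 of them CAGCTG.
Postn: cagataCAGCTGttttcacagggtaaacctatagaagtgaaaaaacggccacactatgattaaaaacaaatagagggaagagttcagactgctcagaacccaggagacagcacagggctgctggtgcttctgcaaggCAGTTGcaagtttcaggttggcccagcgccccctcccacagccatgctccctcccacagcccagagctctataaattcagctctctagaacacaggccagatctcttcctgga

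Of 23 enzymes and inhibitors of the matrix, 11 fell and 4 rose. The serine protease Prss23 fell from 152 and 122 CPM to 66.1 and 70.5 CPM (log2 fold change -0.997, adjusted p = 2.1e-05), above its Control level of 48.5 and 47.9 CPM. Has2, which makes hyaluronan, fell from 75.6 and 68.4 CPM to 42 and 41 CPM (log2 fold change -0.79, adjusted p = 8.13e-07), and Cemip, which breaks hyaluronan down, fell from 59.1 and 49 CPM to 17.2 and 14.9 CPM (log2 fold change -1.74, adjusted p = 1e-08). Has2 thereby went from below Control (114 and 118 CPM) to further below it, and Cemip went back to its Control level (18.1 and 18.6 CPM). Cemip2, a cell surface relative of Cemip, fell from 84.1 and 85.4 CPM to 60.6 and 49.8 CPM, and Loxl3, a crosslinking enzyme, from 38 and 32.6 CPM to 25.6 and 23.4 CPM. Adamts17, a metalloproteinase, fell from 2.55 and 2.65 CPM to 0.207 and 0.126 CPM, the latter at the level of 3 counts.

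The 4 genes of this list that rose were 3 that had been below Control at day 7 and 1 inhibitor that had not. Mmp3, stromelysin, rose from 0.891 and 1.03 CPM to 2.77 and 2.95 CPM (log2 fold change 1.57, adjusted p = 0.00171) against 4.94 and 4.89 CPM in Control. Mmp9, a gelatinase, rose from 6.48 and 4.11 CPM to 9.61 and 9.51 CPM (log2 fold change 0.86, adjusted p = 0.00384), and Hpse, heparanase, from 7.94 and 12 CPM to 25.4 and 24.5 CPM (log2 fold change 1.32, adjusted p = 5.45e-05), with 31.2 and 28.6 CPM in Control. Timp3, an inhibitor of metalloproteinases, rose at both steps, from 1.46 and 1.48 CPM in Control to 3.2 and 2.88 CPM in HS7 and 6.81 and 7.79 CPM in HS14 (log2 fold change HS14 vs. HS7 1.27, adjusted p = 0.000225). Without HS14 replicate 1 and without HS14 replicate 2 the calls were lost for Mmp3 (adjusted p = 0.0174 and 0.0249) and Mmp9 (adjusted p = 0.051 and 0.0513), and Mmp9 was also lost without HS7 replicate 2 (adjusted p = 0.021). Loxl3 (adjusted p = 0.0287) and Timp3 (adjusted p = 0.0117) were lost without HS14 replicate 2.

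Markers of fibro-adipogenic progenitors and fibroblasts, cells that make much of the muscle matrix and that pre-plating was meant to remove, share members with the matrix lists. Col1a1, Dpt, Mfap5 and Prelp, which fell, and Dcn, which rose, belong to both. A likeness between these lists is thus in part fixed by shared genes, and of the markers that fell only Thy1 is not a matrix list member. Of 10 tested markers 5 fell and 1 rose, and their summed level was 7601 and 8085 CPM in Control, 8374 and 8402 CPM in HS7, and 3039 and 2850 CPM in HS14, most of it Col1a1. Thy1, a surface antigen of fibroblasts, fell from 472 and 485 CPM in Control to 169 and 150.5 CPM in HS7 and 77.7 and 67.4 CPM in HS14 (log2 fold change HS14 vs. HS7 -1.13, adjusted p = 6.39e-08). Pdgfra, the receptor that defines these progenitors, was at 146 and 149 CPM in Control, 62.4 and 62.6 CPM in HS7, and 59 and 57.3 CPM in HS14, and its change from HS7 was -0.10 (95% interval -0.25 to 0.06). Mfap5, a microfibril protein, fell from 26.1 and 19.6 CPM to 9.23 and 9.89 CPM, and Prelp, a small proteoglycan, from 50 and 55 CPM to 26.3 and 26.4 CPM. No defining marker of the list was at 0, and the part of these cells in the matrix results was not tested.

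BMP and TGF-beta genes divided into some that fell between the time points and some that held a low level. Of 15 tested genes 7 fell and 0 rose (median log2 fold change -0.67), and 5 were DEGs below Control in HS14. Of the 735 tested genes with a symbol, 255 fell, 52 rose and 192 were DEGs below Control in HS14. The median log2 fold change of those 735 in HS14 vs. HS7 was -0.68. Among the ligands, Tgfb2 was at 191 and 191 CPM in Control, 567 and 541 CPM in HS7, and 248 and 242 CPM in HS14 (log2 fold change vs. HS7 -1.17, SE 0.06, adjusted p = 7.49e-10). Bmp2 was at 22.4 and 23.1 CPM in Control and remained low, at 5.11 and 5.37 CPM in HS7 and 6.74 and 6.44 CPM in HS14 (log2 difference 0.34, 95% interval -0.08 to 0.75). Inha, the inhibin alpha subunit, fell from 10.4 and 5.8 CPM to 1.18 and 1.35 CPM (log2 fold change -2.67, adjusted p = 6.82e-06).

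Among the antagonists, Grem1 (gremlin), which binds BMPs outside the cell, had the largest lasting loss in this list. It was at 261 and 256 CPM in Control, 15.9 and 16.3 CPM in HS7, and 12.5 and 15.1 CPM in HS14. The libraries of both suspended groups were far below Control and close to each other, with a log2 difference of -0.22 between HS14 and HS7 (SE 0.13, 95% interval -0.50 to 0.06, adjusted p = 0.217) and of -4.24 between HS14 and Control (adjusted p = 3.44e-35). Fstl3, an inhibitor of activins and myostatin, went the other way and fell from 68.7 and 61 CPM to 23.8 and 24.8 CPM (log2 fold change -1.41, adjusted p = 4.68e-09), 0.35 log2 units above its Control level of 20.6 and 17.4 CPM. The Grem1 window, chr3:120978320-120978569 on the minus strand of GRCr8, is shown beside those above as that of a gene that did not move back, and no CANNTG was found in these letters.
Grem1: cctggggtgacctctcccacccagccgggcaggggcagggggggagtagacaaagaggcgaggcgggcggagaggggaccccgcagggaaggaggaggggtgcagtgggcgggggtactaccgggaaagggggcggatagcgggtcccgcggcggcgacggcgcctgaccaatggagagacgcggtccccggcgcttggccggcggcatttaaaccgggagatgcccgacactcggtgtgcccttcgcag

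Among receptors and their partners, the co-receptor Eng stayed at its HS7 level (56.5 and 44.4 CPM in HS7, 48.4 and 47.5 CPM in HS14, log2 difference -0.07, 95% interval -0.28 to 0.15), against 92.1 and 99.3 CPM in Control. Acvrl1, the type I receptor with which Eng works, fell from 20.2 and 17.8 CPM to 11.3 and 8.46 CPM (log2 fold change -0.93, adjusted p = 0.000126). Lrrc32, which presents latent TGF-beta on the cell surface, fell from 68.3 and 50.5 CPM to 32.3 and 31.4 CPM (log2 fold change -0.89, adjusted p = 0.000435). Hjv, hemojuvelin, a BMP co-receptor made by muscle, was at 6.68 and 8.3 CPM in Control, 36.6 and 20.5 CPM in HS7, and 3.42 and 3.49 CPM in HS14 (log2 fold change vs. HS7 -3.04, SE 0.36, adjusted p = 0.00476). The inhibitor Smad6, a target of BMP signals, fell from 14.8 and 12.3 CPM to 8.26 and 8.67 CPM (log2 fold change -0.67, adjusted p = 0.00248), with 21.5 and 26.1 CPM in Control. With HS14 replicate 1 or 2 left out, the calls of Lrrc32 (adjusted p = 0.0303 and 0.038), Hjv (adjusted p = 0.157 and 0.153) and Smad6 (adjusted p = 0.0359 and 0.0259) were lost, and that of Smad6 also without HS7 replicate 1 (adjusted p = 0.0159).

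In the Wnt list 8 of 15 tested genes fell and 0 rose (median log2 fold change -1.09). The ligand Wnt4 fell from 25.8 and 31.5 CPM to 13.3 and 13.6 CPM (log2 fold change -1.09, adjusted p = 2.46e-06), with 36.8 and 41.3 CPM in Control. Wnt11 fell from 15.9 and 14.3 CPM to 6.22 and 5.77 CPM (log2 fold change -1.32, adjusted p = 4.74e-06), near its Control level of 4.31 and 4.66 CPM. Wnt5a had 76.3 and 58.4 CPM in HS7 and 57.9 and 47.8 CPM in HS14, a narrow gap that did not pass (adjusted p = 0.146), with 95.7 and 92 CPM in Control. In HS14 Wnt4 and Wnt5a were thus below Control (adjusted p = 4.8e-16 and 3.18e-12), and Wnt11 was not (adjusted p = 0.0846). Dkk3, a secreted relative of the Wnt antagonists, kept a low level of 8.59 and 7.93 CPM in HS7 and 5.81 and 5.56 CPM in HS14 (adjusted p = 0.0321) against 34.8 and 32.2 CPM in Control, and the receptor Ror2 was at 9.16 and 6.55 CPM and then 6.5 and 6.31 CPM, against 22.3 and 24.1 CPM in Control. The intracellular antagonist Dact1 fell from 18.8 and 23.1 CPM to 10.3 and 9.13 CPM and the secreted antagonist Wif1 from 20.6 and 18.6 CPM to 11.8 and 8 CPM, and both stayed above Control. Nkd2, a feedback inhibitor of the pathway, fell from 7.38 and 5.96 CPM to 2.77 and 2.82 CPM, below its Control level of 9.64 and 13.2 CPM. The call of Nkd2 was lost without HS14 replicate 1 or 2 (adjusted p = 0.0103 and 0.0106).

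Among 21 tested growth factors and receptors, 4 fell and 2 rose, against 12.0% and 11.5% of all genes tested. Their median log2 fold change was 0.04. Of the 735 tested genes with a symbol, from which the members come, 255 fell and 52 rose, with a median of -0.68. Erbb3, a receptor of neuregulin, changed most among those that fell, from 11.4 and 11 CPM in Control to 73.5 and 50.5 CPM in HS7 and back to 12.8 and 10.5 CPM in HS14 (log2 fold change vs. HS7 -2.40, SE 0.23, adjusted p = 0.00132). Its ligand Nrg1 took another course, from 13.1 and 13.2 CPM in Control down to 5.71 and 4.07 CPM in HS7 and 2.07 and 2.15 CPM in HS14 (log2 fold change vs. HS7 -1.20, adjusted p = 0.00213). Receptor and ligand therefore fell together from day 7 to day 14 but from opposite sides of Control. Vegfd, a lymphatic growth factor, fell from 38.1 and 32.1 CPM to 22.1 and 18.2 CPM (log2 fold change -0.79, adjusted p = 6.5e-05), and Igfbp4, a binder of insulin-like growth factors, from 60.8 and 61 CPM to 27 and 20.5 CPM (log2 fold change -1.34, adjusted p = 7.89e-07), both to below Control. Fgf7 rose from 25.5 and 22.1 CPM to 35.3 and 33.6 CPM (log2 fold change 0.54, adjusted p = 0.000433), still below its Control level of 65.2 and 65.3 CPM. Tgfa, a ligand of the epidermal growth factor receptor, rose from 2.07 and 1.66 CPM to 4.08 and 4.55 CPM (log2 fold change 1.22, adjusted p = 0.00229), with 9.09 and 11 CPM in Control. Pdgfrb, the PDGF receptor of pericytes, had 121 and 85.4 CPM in HS7 and 102 and 95.8 CPM in HS14 and did not pass (adjusted p = 0.879). Without HS14 replicate 1 and without HS14 replicate 2 the calls were lost for Erbb3 (adjusted p = 0.0316 and 0.0394), Nrg1 (adjusted p = 0.0307 and 0.0283) and Tgfa (adjusted p = 0.0175 and 0.0373), for Nrg1 also without HS7 replicate 1 (adjusted p = 0.0166), and for Fgf7 without HS14 replicate 1 (adjusted p = 0.0136).

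Cytokine genes held 3 of the 11 named genes that were higher DEGs. Of 24 tested genes in this list 6 fell and 3 rose, against 12.0% and 11.5% of all genes tested. In the 735 tested genes with a symbol, from which the members come, 255 fell and 52 rose. Cxcl3, a chemokine that attracts neutrophils, was at 15.4 and 16.1 CPM in Control, 2.92 and 5.64 CPM in HS7, and 17.4 and 16.1 CPM in HS14 (log2 fold change vs. HS7 1.97, SE 0.25, adjusted p = 0.000153), where its difference from Control was 0.09 (95% interval -0.15 to 0.32). Cxcl6, a chemokine of the same kind, rose from 1.3 and 0.829 CPM to 5.46 and 3.33 CPM (log2 fold change 2.06, adjusted p = 0.000163), with 7.27 and 7.02 CPM in Control. Il6 (interleukin 6) was at 2.06 and 1.59 CPM in Control, 1.18 and 0.868 CPM in HS7, and 4.11 and 3.54 CPM in HS14 (log2 fold change vs. HS7 1.91, adjusted p = 0.000182). It stood above Control in HS14 by 1.07 log2 units (adjusted p = 0.0015), whereas the chemokines did not rise past Control.

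Several inhibitors and receptors of interleukins in this list fell. Il1rn, the antagonist of the interleukin 1 receptor, fell from 39.6 and 40.2 CPM in Control to 10.4 and 7.18 CPM in HS7 and 2.83 and 2.74 CPM in HS14 (log2 fold change HS14 vs. HS7 -1.65, SE 0.23, adjusted p = 2.81e-05), so the gap to Control widened from -2.18 to -3.84. Il1rl1, the receptor of interleukin 33, fell from 417 and 327 CPM to 239.8 and 243 CPM (log2 fold change -0.61, adjusted p = 0.00195), with 818 and 786 CPM in Control, and Il33 itself from 27.3 and 19.3 CPM to 12.8 and 9.89 CPM (log2 fold change -1.02, adjusted p = 0.00136). Il21r, a cytokine receptor, fell from 4.01 and 3.71 CPM to 0.484 and 0.673 CPM (log2 fold change -2.73, adjusted p = 1.5e-05). F3, tissue factor, which starts coagulation, had 30.5 and 21.8 CPM in HS7 and 32.5 and 41.8 CPM in HS14 (adjusted p = 0.1). Some calls were lost without a single HS14 library: Il1rl1 without either (adjusted p = 0.0411 and 0.0418), Cxcl3 (adjusted p = 0.0105) and Cxcl6 (adjusted p = 0.0149) without replicate 1, and Il33 (adjusted p = 0.0283) without replicate 2.

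Vasoactive receptors and prostaglandin genes gave 3 of 16 that fell and 3 that rose, against 12.0% and 11.5% of all genes tested. In the 735 tested genes with a symbol, from which the members come, 255 fell and 52 rose. Ptgs1, cyclooxygenase 1, which makes the precursor of prostaglandins, was at 469 and 469 CPM in Control, 108 and 121 CPM in HS7, and 177 and 159.6 CPM in HS14 (log2 fold change vs. HS7 0.57, SE 0.07, adjusted p = 2.42e-05). Ptges, prostaglandin E synthase, rose from 8.79 and 7.62 CPM to 14.5 and 14.5 CPM (log2 fold change 0.83, adjusted p = 0.000298), with 25.7 and 26.9 CPM in Control, and the endothelin receptor Ednrb from 6.69 and 4.22 CPM to 11.1 and 10.3 CPM (log2 fold change 0.98, adjusted p = 0.00128), with 22.7 and 20.1 CPM in Control. These 3 genes thus moved part of the way from their HS7 level toward Control. The prostacyclin receptor Ptgir did not, with 11.1 and 8.45 CPM in HS7 and 11.6 and 11.2 CPM in HS14 (log2 difference 0.23, 95% interval -0.11 to 0.57) against 29.2 and 37 CPM in Control, and the bradykinin receptor Bdkrb2 fell further, from 21.3 and 22 CPM to 12.9 and 12.8 CPM (log2 fold change -0.74, adjusted p = 9.46e-05). The call of Ednrb was lost without HS14 replicate 1 (adjusted p = 0.0346) and without HS14 replicate 2 (adjusted p = 0.0226).

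Of 34 tested transcription factors of mesenchyme and body position, 7 fell and 4 rose (12.0% and 11.5% of all genes tested did so), and 23 were below Control in HS14 at adjusted p under 0.01. The share that rose was thus close to that of all genes. Among the 735 tested genes with a symbol 255 fell, 52 rose and 374 were below Control in HS14. Hmga1, a chromatin protein of proliferating cells, was at 238 and 247 CPM in Control, 51.2 and 48.3 CPM in HS7, and 117 and 125 CPM in HS14 (log2 fold change vs. HS7 1.29, SE 0.07, adjusted p = 1.1e-09), and its relative Hmga2 was at 16.8 and 16.6, 2.84 and 2.49, and 5.98 and 6.1 CPM (log2 fold change 1.19, adjusted p = 0.000743). Fosl1, a member of the AP-1 family, rose from 22.9 and 21.8 CPM to 54.9 and 59.6 CPM (log2 fold change 1.37, adjusted p = 6.85e-09), with 69.5 and 69.7 CPM in Control, and Klf4 from 9.89 and 8.84 CPM to 14.3 and 19.6 CPM (log2 fold change 0.86, adjusted p = 0.000484), with 28.9 and 28.6 CPM in Control. All 4 were below Control in HS7 and had moved toward it in HS14. Vdr, the vitamin D receptor, fell from 33.1 and 34.2 CPM to 11.4 and 7.16 CPM (log2 fold change -1.84, adjusted p = 3.64e-05), near its Control level of 7.35 and 6.37 CPM. Sox11, a factor of embryonic progenitors, fell from 90.7 and 87.4 CPM to 40.7 and 42.1 CPM (log2 fold change -1.10, adjusted p = 8.02e-09), and Plagl1, an imprinted zinc finger factor, from 56 and 53.1 CPM to 40.4 and 41.5 CPM (log2 fold change -0.41, adjusted p = 0.000756), and both stayed above Control. The call of Plagl1 was lost in the fit of all 10 libraries (adjusted p = 0.163) and without HS14 replicate 1 or 2 (adjusted p = 0.0176 and 0.013), as was that of Hmga2 without HS14 replicate 1 or 2 (adjusted p = 0.0122 and 0.0154), and that of Klf4 without HS14 replicate 2 (adjusted p = 0.0317).

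By the rule of DEGs with the largest change among genes of a mean log2 CPM of at least 3 whose libraries did not overlap, 43 genes with a symbol were lower and 1, Cxcl3, was higher. Klk1, a tissue kallikrein that releases kinins, led the lower genes, with 3.87 and 3.79 CPM in Control, 24.7 and 15.6 CPM in HS7, and 1.11 and 1.35 CPM in HS14 (log2 fold change vs. HS7 -4.03, SE 0.26, adjusted p = 2.58e-07). It belongs to a family of near copies, so its count is uncertain. Gldn, gliomedin, a member of the Schwann cell list and an adhesion protein that Schwann cells use at nodes, fell from 60.3 and 50.5 CPM to 8.61 and 7.24 CPM (log2 fold change -2.79, SE 0.12, adjusted p = 1.4e-10), with 17.8 and 19.3 CPM in Control. Shisal1, a membrane protein, fell from 83.5 and 68.4 CPM to 12.2 and 10.1 CPM (log2 fold change -2.76, SE 0.12, adjusted p = 2.38e-09), with 17.9 and 18.3 CPM in Control. Filip1, a binder of filamin, fell from 42.5 and 26.2 CPM to 5.39 and 5.01 CPM (log2 fold change -2.71, adjusted p = 0.000952), and Mustn1, a small nuclear protein of muscle and skeleton, from 26.3 and 15.7 CPM to 3.18 and 3.2 CPM (log2 fold change -2.71, adjusted p = 3.09e-05). The other lower genes that the rule named, Islr, Hjv, Postn, Stac3 and Fhod3, are described with their lists. With either HS14 library left out, calls were lost for Filip1 (adjusted p = 0.0741 and 0.0767) and Mustn1 (adjusted p = 0.0285 and 0.0284).

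The remaining higher DEGs with a symbol were at low levels. Kcnk5, a potassium leak channel, rose from 1.14 and 1.26 CPM to 4.84 and 3.54 CPM (log2 fold change 1.81, adjusted p = 0.000199), with 4.86 and 6.14 CPM in Control. Cldn4, a claudin of tight junctions, rose from 0.729 and 0.632 CPM to 3.11 and 3.37 CPM (log2 fold change 2.25, adjusted p = 9.98e-05), above its Control level of 1.42 and 1.67 CPM, and Pou2af1, a coactivator known from B cells, from 1.54 and 1.1 CPM to 3.73 and 4.76 CPM (log2 fold change 1.68, adjusted p = 0.000359). LOC691418, a gene without a descriptive name, rose from 0.284 and 0.316 CPM to 1.73 and 1.89 CPM (log2 fold change 2.58, adjusted p = 0.000461), and Myoc, myocilin, from 0.243 and 0.237 CPM to 1.04 and 1.94 CPM (log2 fold change 2.6, adjusted p = 0.00148). Slc25a48, a mitochondrial carrier, was listed at 0 in both HS7 libraries and at 0.795 and 0.505 CPM in HS14, against 0.395 and 0.417 CPM in Control. Rgs5, a regulator of G-protein signals that marks pericytes, was at 0 in both Control libraries, at 0.324 and 0.355 CPM in HS7, and at 1.28 and 1.14 CPM in HS14 (adjusted p = 0.00957), and its call was lost without any 1 of the 4 libraries (adjusted p = 0.0399 to 0.0991), in DESeq2 (adjusted p = 0.0648), with the replicate block (adjusted p = 0.0157), and with 6 or 10 libraries in 1 fit (adjusted p = 0.0158 and 0.0252). Without HS14 replicate 1 the call of Kcnk5 (adjusted p = 0.0127), and without HS14 replicate 2 those of Pou2af1 (adjusted p = 0.016), LOC691418 (adjusted p = 0.0138), Myoc (adjusted p = 0.0677) and Slc25a48 (adjusted p = 0.0106), were lost.

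What returned to the level of Control was separated from what stayed changed on the 12812 genes that were tested in HS14 vs. HS7 and in both contrasts with Control. The Control level, defined as above, held for 79.93% of all genes in HS14 and for 74.77% in HS7. The 3 contrasts share their libraries, so these are descriptions of position and not independent tests. Genes above Control in HS7 and genes below it differed in where they stood at day 14. In HS7 vs. Control 257 genes were DEGs above (1.95%) and 215 below (1.63%), and in HS14 vs. Control 69 were DEGs above (0.524%) and 265 below (2.01%). Of 225 genes that were DEGs above Control in HS7 and were tested in all 3 contrasts, 75 (33.33%) were at the Control level in HS14, 20 (8.889%) were still DEGs above, 1 was a DEG below, and 129 lay between these definitions. Of 181 genes that were DEGs below Control in HS7, 12 (6.63%) were at the Control level in HS14, 97 (53.59%) were still DEGs below, and 72 lay between. As shares of the day 14 lists, the 20 genes were among 47 DEGs above Control and the 97 among 220 DEGs below it.

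**Figure D3:**
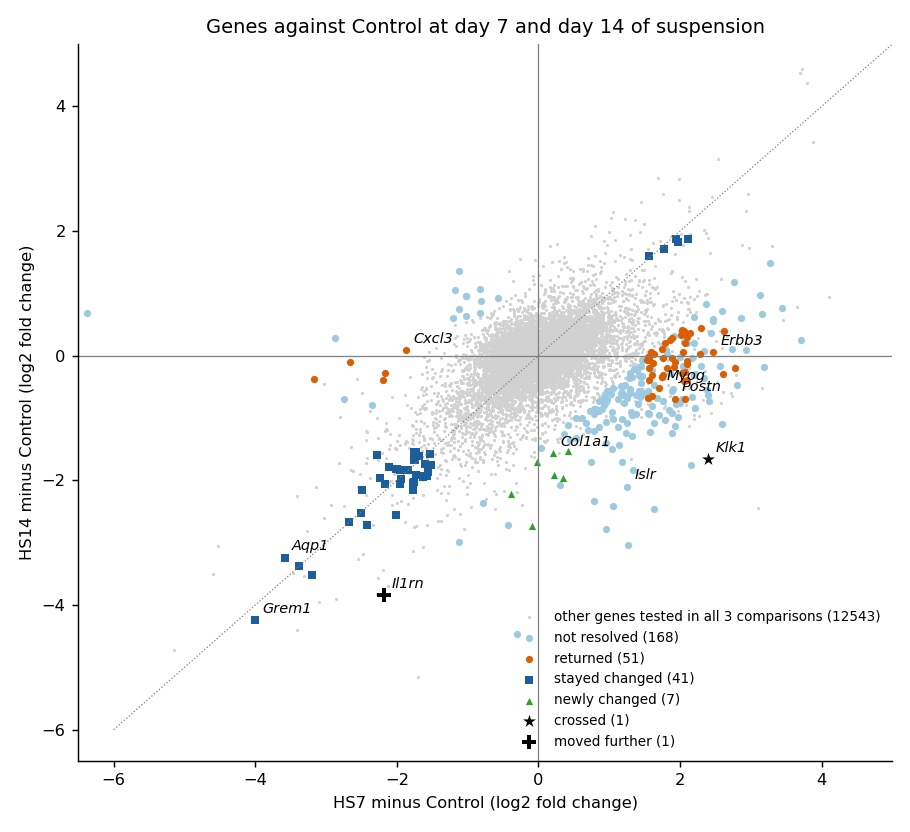
Log2 fold change vs. Control in HS7 (x axis) and in HS14 (y axis) for the 12812 genes tested in all 3 contrasts, 1 point a gene, colored by the classes described in the text, with a dotted line where both differences are equal. The 46 returned genes with HS7 above Control lie near 0 on the y axis, while the 36 genes that stayed below Control lie along the dotted line, down to Grem1 at -4.24.

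A stricter sorting asked for DEG calls on the way. A gene "returned" where it was a DEG in HS7 vs. Control and in HS14 vs. HS7 and stood at the Control level in HS14, and it "stayed changed" where it was a DEG vs. Control on the same side in both groups and the interval between HS14 and HS7 lay within 1 log2 unit. By this sorting 51 genes returned, 46 that were above Control in HS7 and 5 that were below, and 41 stayed changed, 36 below Control and 5 above. For 168 further DEGs of HS14 vs. HS7 the intervals did not settle the position. The numbers depend on single libraries, with 27 to 113 returned genes when a library was left out: 27 without Control replicate 1, 32 without Control replicate 2, 29 without HS14 replicate 2 and 113 without HS7 replicate 2. Of the 51 returned genes, 30 returned in DESeq2, 25 without Control replicate 1, 25 without HS14 replicate 2, 49 without HS7 replicate 2, and 13 with the Control level set within 1.5-fold, and of the 41 that stayed changed, 34 stayed in DESeq2.

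The returned genes included 12 of the muscle lists, Myog, Mymx, Srpk3, Myom1, Tnni2, Fhod3, Trim63, Stac3, Cacng6, Ryr3, Prkag3 and the sodium pump regulator Fxyd1, and beyond them receptors and signaling genes of muscle. The receptor Lrp4, which gathers acetylcholine receptors at the nerve contact, was at 91.2 and 91.9 CPM in Control, 317 and 246 CPM in HS7, and 90.6 and 79.5 CPM in HS14 (log2 fold change vs. HS7 -1.72, adjusted p = 0.00063). The nucleoside transporter Slc29a1 was at 70.8 and 70.3 CPM in Control, 225 and 189 CPM in HS7, and 72.4 and 66.2 CPM in HS14, and the adenosine receptor Adora1 at 5.89 and 6.45, 17.8 and 18.3, and 6.43 and 5.81 CPM. Egr3, a transcription factor needed for muscle spindles, was at 2.92 and 2.77 CPM in Control, 14.3 and 9.95 CPM in HS7, and 4.18 and 2.82 CPM in HS14. In these 4 genes the HS14 and Control libraries differed by at most 0.30 log2 units in the fit. The named genes that returned from below were Cxcl3, Kcnk5 and LOC691418. HS7 replicate 1 was the higher HS7 library for 41 of the 51 returned genes, by a median of 0.4215 log2 units, against 0.005591 for all genes tested in all 3 contrasts.

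The genes that stayed below Control were of other kinds. Aqp1, a water channel, was at 118 and 128 CPM in Control, 9.69 and 10.7 CPM in HS7, and 14.8 and 11.1 CPM in HS14, 3.24 log2 units below Control (adjusted p = 8.34e-28). Il11ra1, the receptor of interleukin 11, was at 34.8 and 35.8 CPM in Control, 12.2 and 10.7 CPM in HS7, and 8.78 and 9.89 CPM in HS14, and Pcdh7, a protocadherin of cell contacts, was at 39.5 and 39.2, 10.4 and 9.24, and 11.1 and 11.2 CPM. Slc16a3, a lactate exporter, was at 34.5 and 39.2 CPM in Control, 10.2 and 11.8 CPM in HS7, and 12 and 11.2 CPM in HS14. In each of these 4 the HS7 and HS14 libraries lay close together and far from Control. Esm1, a secreted proteoglycan of endothelium, Layn, a hyaluronan receptor, and Krt7, an epithelial keratin, which were picked after their values were seen, were 3.52, 2.66 and 3.38 log2 units below Control in HS14. Signaling genes described above, Grem1, Bmp2, Dkk3, Ror2 and Ptgir, belong here too, and no gene of the muscle lists does. The 3 named genes that stayed above Control were Sparcl1, a matrix protein (1.03 and 1.48 CPM in Control, 5.19 and 3.4 CPM in HS7, 4.11 and 4.17 CPM in HS14), Podxl, podocalyxin of the cell surface (1.7 and 0.607, 5.92 and 4.03, and 4.56 and 3.83 CPM), and the phosphatase Ptprz1 (0.87 and 0.796, 3.93 and 2.6, and 2.77 and 3.2 CPM).

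A few genes changed from day 7 to day 14 without a return. A group of 7 genes stood at the Control level in HS7 and were DEGs below both HS7 and Control in HS14: Col1a1 and Pln, described above, and Itga11, Slit3, Npr3, Bcas1 and Gsta6. Itga11, an integrin that binds collagen, was at 12.5 and 12.1 CPM in Control, 14.8 and 13.7 CPM in HS7, and 3.46 and 3.03 CPM in HS14 (log2 fold change vs. HS7 -2.12, SE 0.18, adjusted p = 1.22e-07). Slit3, a secreted guidance protein, was at 6.29 and 6.56 CPM in Control, 10.4 and 5.84 CPM in HS7, and 1.83 and 1.43 CPM in HS14 (log2 fold change -2.29, adjusted p = 2.74e-05). Bcas1, known from myelinating cells, went from 5.19 and 5.61 CPM in HS7 to 1.38 and 1.68 CPM in HS14, the glutathione transferase Gsta6 from 2.39 and 2.65 CPM to 0.657 and 0.926 CPM, and Npr3, the clearance receptor of natriuretic peptides, from 1.18 and 1.26 CPM to 0.0691 and 0.337 CPM. Gsta6 belongs to a family of close copies, so its count is uncertain, and its call was lost without HS14 replicate 1 (adjusted p = 0.0393) and without HS14 replicate 2 (adjusted p = 0.0134), while that of Npr3 was lost without HS14 replicate 1 (adjusted p = 0.0829) and in DESeq2 (adjusted p = 0.0177). Il1rn was the 1 gene that moved further from Control, and Klk1 the 1 gene that was a DEG above Control in HS7 and a DEG below it in HS14.

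Some lower genes passed through the Control level. Of 208 lower DEGs of HS14 vs. HS7 that were tested in all 3 contrasts, 157 were above Control in HS7 at adjusted p under 0.01 (background 16.6%), 70 were below it in HS14 (background 17.0%), and 44 were both. Their median log2 difference from Control was 1.56 in HS7 and -0.58 in HS14. At the DEG threshold 101 of the 208 were above Control in HS7, 66 were at the Control level in HS14, and 20 were DEGs below it. Of 20 higher DEGs 11 were below Control in HS7 at adjusted p under 0.01 (background 16.2%) and 6 above it in HS14 (background 15.8%), with median log2 differences from Control of -1.19 and 0.66. The lower and the higher DEGs were chosen by their difference between HS14 and HS7. That choice favors opposite positions against Control, so an excess over the background is partly built in and the shares are descriptions.

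Set against the earlier groups, the genes that returned and those that stayed below Control had different courses, which are descriptions because HS7 and HS14 chose them. For the 46 genes that returned from above, the median difference from Control, on the scale of log2(CPM + 0.5), was -0.61 at day 1, 0.62 at day 3, 1.74 at day 7 and -0.07 at day 14, so they lay below Control at day 1 (40 of 46 genes) and above it at day 3 (40 of 46 genes). The 36 genes that stayed below Control had medians of -1.39 at day 1, 0.29 at day 3, -1.71 at day 7 and -1.80 at day 14. Day 3 was thus the time at which 24 of these 36 genes stood above Control, between low levels on either side. Grem1, for example, was at 80.3 and 87.9 CPM in HS1 and at 351 and 348 CPM in HS3, against 261 and 256 CPM in Control, before its low level in HS7 and HS14. Aqp1 was at 32.5 and 32.3 CPM in HS1 and at 226 and 226 CPM in HS3. Myog was at 116 and 107 CPM in HS1 and at 426 and 387 CPM in HS3, and Postn at 67.3 and 73 CPM and then 408 and 451 CPM. The 3 named genes that stayed above Control had HS3 levels of 2.39 and 1.99 CPM (Sparcl1), 1.42 and 0.954 CPM (Podxl) and 0.508 and 0.159 CPM (Ptprz1). For Podxl and Ptprz1 the HS3 libraries were thus within or below the range of the Control libraries.

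**Figure D4:**
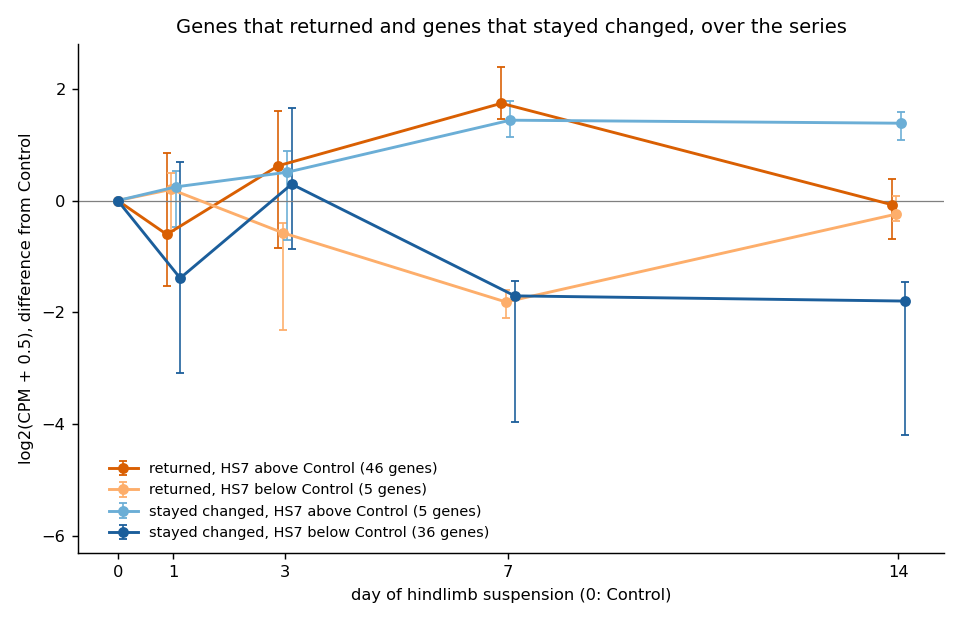
Median difference from Control in log2(CPM + 0.5) at 1, 3, 7 and 14 days for 4 gene groups (46 and 5 that returned from above and below, 36 and 5 that stayed below and above), with bars from the lowest to the highest gene. The returned genes from above peak at 1.74 at day 7 and end at -0.07, and the genes that stayed below Control are near or above it at day 3 and at -1.71 and -1.80 at days 7 and 14.

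Among markers of other cell types, 3 of 5 Schwann cell markers fell with the muscle genes, and no tested marker of endothelium passed downward. Of 13 tested endothelial markers 1 rose and 0 fell. Their summed level was 86.64 and 67.7 CPM in HS7 and 87.63 and 85.87 CPM in HS14, below 187.1 and 194.8 CPM in Control. Eng and Esm1, with the highest mean CPM, weigh most in this sum. The fitted change was upward for 11 of the 13, and the HS14 libraries lay above HS7 for 9 (33.1% of all genes tested). In HS14 7 of the 13 were DEGs above Control and 1 below, against 37 and 192 of the 735 genes with a symbol. Their median log2 difference from Control was 2.495. Cdh5, the junction protein that defines endothelium, was at 0.237 and 0.152 CPM in Control, 3.24 and 1.97 CPM in HS7, and 5.15 and 4.42 CPM in HS14, and Thbd, thrombomodulin, was the marker that rose, from 4.54 and 3.87 CPM to 8.16 and 8.25 CPM (log2 fold change 0.97, adjusted p = 0.000953), a call lost without HS14 replicate 1 or 2 (adjusted p = 0.0164 and 0.0193). Of 5 pericyte and smooth muscle markers 1 rose (Rgs5, whose call was lost under the alternatives given above) and 0 fell, with sums of 264.8 and 221.0 CPM in HS7 and 184.8 and 156.8 CPM in HS14, and of 4 tested macrophage and leukocyte markers 0 passed in edgeR (3 had an unadjusted p under 0.05, and DESeq2 called Spn, adjusted p = 0.00882), with sums of 31.77 and 43.34 CPM in HS7 and 72.38 and 66.22 CPM in HS14. Of 5 Schwann cell and glia markers, 3 fell, Erbb3, Gldn and Lgi4 (Lgi4 from 14.3 and 16.4 CPM to 10.7 and 8.04 CPM, adjusted p = 0.00218, and 0.0602 without HS14 replicate 2), with sums of 156.9 and 124.6 CPM in HS7 and 40.79 and 34.27 CPM in HS14. S100b, a defining gene of Schwann cells, was at 15.2 and 13.3 CPM in Control and lower, at 6 and 6.12 CPM in HS7 and 4.32 and 4.76 CPM in HS14. Ngfr, the last of the 5, went the other way and did not pass (log2 difference 1.03). It had 18 and 20 raw counts in Control, 70 and 30 in HS7, and 128 and 88 in HS14. Of 4 tested adipocyte markers 1 fell, Lpl, which is also a member of the energy list, while the fitted changes of the other 3 (Pparg, Plin4 and Cfd) were upward and did not pass. The sums of 270.7 and 205.7 CPM in HS7 and 111.0 and 103.2 CPM in HS14 were mostly Lpl. The part of these cells in the muscle and matrix results was not tested.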

How the data were processed

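The authors sequenced stranded mRNA libraries of 5 groups (Control, HS1, HS3, HS7, HS14), 2 libraries each, and deposited raw counts per Ensembl gene, with no normalization. The study's methods give the build mRatBN7.2, while the submitters' processing notes list Rnor_6.0 with STAR 2.7, featureCounts 1.6.4 and FastQC 0.11.9. The handling of strand, shared reads and read pairs is not given in the sources used here. Even numbers made up 69.4 to 72% of the counts from 1 to 20. Whether a count is a read or a fragment is not known, so 3 counts may stand for fewer than 3 fragments and the counting precision may be lower than the totals imply.

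Each comparison was fitted on its own 4 libraries with edgeR 4.0.16 (limma 3.58.1, R 4.3.3): filterByExpr, TMM, robust quasi-likelihood test, Benjamini-Hochberg adjustment over all genes tested, two-sided. The SE is the log2 fold change divided by the root of F, and fitted folds carry edgeR's prior count of 0.125. DESeq2 1.42.0, other scalings and filters, joint fits, a replicate block and fits without each library were alternatives. The test was checked on simulated counts. The total count was 20200972 to 28175200 per library, and p-values measure the spread between libraries.

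Ensembl IDs were named through the ID and symbol columns of the study's supplementary gene table, which paired 770 of 817 IDs. Its fold change and p-value columns hold the authors' comparisons and were not used. By rule the text names the DEGs of largest change whose libraries did not overlap and whose average log2 CPM reached 3 (up to 10 a direction), up to 5 genes of each class of return, up to 4 genes of each list by mean CPM, Myog, Mymk and Mymx, and all members of counts of 5 or fewer. Other genes, such as Lrp4, Slc29a1, Adora1, Egr3 and further list members, were picked after their values were seen. Members and lists were chosen with earlier results of these data known. Genes without a symbol are counted but not named. Some members of the lists are counted but not reported here by name.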

Additional observations from a re-analysis of the deposited data

Results flagged for a closer look

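Klk1 was picked out because its difference from Control had opposite signs at the 2 time points, 2.39 log2 units above Control in HS7 (adjusted p = 1.39e-05) and 1.65 below it in HS14 (log2 fold change -1.65, adjusted p = 1.65e-05, both edgeR's quasi-likelihood test). The difference between the time points was itself tested as HS14 vs. HS7, with a log2 fold change of -4.03 (SE 0.26, adjusted p = 2.58e-07), and both HS14 libraries were below both HS7 libraries.

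On the wider threshold of adjusted p under 0.01 without a fold limit, 46 DEGs of HS14 vs. HS7 stood on opposite sides of Control at day 7 and day 14. Of these, 44 were above Control in HS7 and below it in HS14, and 2 were below and then above. The same Control libraries enter both contrasts.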

How the results depend on the processing

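Of the 28 higher and 239 lower DEGs of HS14 vs. HS7, DESeq2 left 18 higher, and a log2 threshold of 1 gave 111 higher and 457 lower. Leaving out 1 library gave 10 to 36 higher and 139 to 361 lower DEGs. The 39 muscle genes that fell became 84 with DESeq2, 85 with 10 libraries in 1 fit, and 22 to 86 with a library left out. The 51 returned genes became 13 when the Control level was set within 1.5-fold (27 to 113 with a library left out), the 41 that stayed changed became 12 (28 to 43), and the 7 newly changed became 2 (3 to 9). The 168 unresolved genes ranged from 106 to 232 with a library left out, the 0 partly returned from 0 to 1, and the 1 that moved further from 0 to 1. The 1 crossed gene became 2 with DESeq2, 2 with 6 libraries, 3 with 10 libraries, and 1 to 7 with a library left out. A fit without 1 library of a group assumes that the lone library varies like the other group, and the cause of these shifts was not tested.

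Of 169 named genes, 110 passed. In what follows, a change of sign was counted only where the gene passed in the main fit or in the alternative. Genes that passed in neither could change sign with a library left out. Examples are Eng (log2 fold change -0.2243 to 0.1153) and Pdgfrb (-0.2783 to 0.2167). Over 1014 values under settings that kept all libraries, 918 kept their side of the threshold, 6 (Npr3, Plagl1 and Rgs5) lost it, 90 gained it and 0 changed sign. Over 675 values with a library left out, 540 kept it, 76 (44 genes) lost it, 59 gained it and 0 changed sign. Depth limits what can be said of genes near 3 counts.

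The replicate numbers did not pair the libraries: deviations of libraries with the same number correlated at 0.0134 (HS14 and HS7), -0.00581 (HS7 and Control) and 0.0148 (HS14 and Control). With the replicate block, 24 higher and 285 lower DEGs, 74 lower muscle genes, 64 returned genes and 2 crossed genes were counted.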

Other observations

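Usp9y, a Y-linked deubiquitinase, was among the lower DEGs and was picked after its values were seen. It was at 1.74 and 1.82 CPM in Control, 1.78 and 1.1 CPM in HS7, and 0.0691 and 0.0842 CPM in HS14, below the level of 3 counts. In the earlier groups it was at 0 and 0.0871 CPM in HS1 and at 6.71 and 6.76 CPM in HS3. The rats of all groups were male by the study's methods.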
